A study of Rattus norvegicus with 10 samples.

Results

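Brain endothelium was followed here through 32 genes for cell surface, junction, signalling and secreted proteins, taken by name from the deposited gene table. Where several rows carried one symbol, the row with the highest mean expression was used. A row was found for 30 of the 32 genes among the 32623 genes of the table, and 29 passed the expression filter described below. Pecam1 and Ly6c1 were not analysed here, and Myct1 did not pass the filter. Endothelial expression in brain is narrow, by general knowledge, for 21 of the 29 genes tested, while the remaining 8 are also known from other brain cells.

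The libraries were made from poly(A) RNA of whole cerebral cortex of adult male Sprague-Dawley rats, 5 given electroacupuncture (EA) and 5 controls. EA rats received a current of 3 mA at alternating 2 and 100 Hz for 40 min at points of the head, a treatment studied as a way to open the blood-brain barrier. Controls spent the same 40 min bound, without stimulation. All rats were perfused with saline before the cortex was taken. Each library is taken to be 1 rat, which the labels imply but do not state, so the p-values measure the spread between these samples.

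Endothelial cells line every vessel of the brain and form the wall that separates blood from nervous tissue. They hold together through adherens and tight junctions, carry a coat of sialomucins towards the blood, sense flow and growth factors through surface receptors, and pass these signals on through small GTPases and nitric oxide. They make up a small share of cortical cells, so their transcripts are a small part of RNA from whole cortex. In such bulk samples fewer endothelial cells and less RNA per endothelial cell cannot be told apart.

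Deposited counts summed to 47843590 to 60941939 per EA library and 55223193 to 61707722 per control library. Mitochondrial genes held 41.71% to 46.73% of the summed expression in EA libraries and 38.17% to 45.08% in control libraries. Structural RNA stood apart in EA 2 and EA 5, with 897.8 and 1279 FPKM (fragments per kilobase of transcript scaled to the mapped fragments of the library), against 126.7 to 146.8 FPKM in the other 3 EA libraries and 119.5 to 143.9 FPKM in control libraries. Values without EA 2 and EA 5 are given together after the single genes. Of the 10 neuronal, 10 astrocytic and 10 microglial marker genes listed for the cortex, all passed the filter.

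The endothelial genes had, as a list, lower values in EA cortex than in control cortex, but no single gene passed the test. Their summed expression was 253.7 to 307.4 FPKM in EA libraries and 314.2 to 339.1 FPKM in control libraries, which is 282.5 ± 19.99 against 325.6 ± 9.64 FPKM (SD, n = 5 each). The difference was -13.2%, and in FPKM every EA library lay under every control library. In the scaled counts used for the tests (CPM after TMM scaling) the sum was 652.5 to 825.5 in EA libraries and 790.5 to 888.2 in control libraries, and the groups overlapped. Pltp and Itm2a alone made up 34.0% to 37.9% of the summed FPKM in EA libraries and 34.8% to 39.0% in control libraries. Without these 2 genes the sum was 167.0 to 196.7 FPKM in EA libraries and 196.1 to 219.5 FPKM in control libraries, so that the highest EA library and the lowest control library overlapped slightly.

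Differences between the groups were fitted for 15169 genes with edgeR's quasi-likelihood test, and log2 fold changes are EA over control, so a negative value means lower in EA. Genes more than 1.2-fold apart at a Benjamini-Hochberg adjusted p under 0.05 were called. Over all genes 3 were called (0.0198%), all 3 higher in EA, and 0 of the 29 endothelial genes were. The endothelial genes were chosen with earlier results of these data known. They hold Hspa12b, Tmem204 and Sh3bp4, which the study had reported as different in these libraries. Counts of endothelial genes are therefore set beside the share of all genes as a description only. At an unadjusted p under 0.05 in edgeR, 7 endothelial genes (24.1%) were lower in EA and 0 higher, where the share over all genes was 7.15% lower and 6.59% higher. Without EA 3 there were 11 in place of 7, against 7.72% of all genes lower, and the 3 genes called over all genes became 5 without EA 3 and 1 without EA 5. The log2 fold change was below 0 for 27 of the 29 genes (93.1%), against 50.5% of all genes. DESeq2, the test named in the study's methods, called 4 of them lower in EA (13.8%), namely Ushbp1, Sh3bp4, Tmem204 and Hspa12b, against 0.6% of all genes, and 0 higher, against 0.508%. In limma on log2(FPKM + 1), 0 were called lower (0.00659% of all genes), and 9 (31.0%) had an unadjusted p under 0.05 in that direction, against 9.62% of all genes.

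The median log2 fold change of the endothelial genes was -0.22, with quartiles at -0.40 and -0.09, while the median over all genes was 0.00. The median was -0.22 for the 21 genes of narrow endothelial expression and -0.21 for the 8 of broader expression. Without EA 2 and EA 5 the median was -0.13 and 23 of the 29 genes were below 0, against 49.4% of all genes. At an unadjusted p under 0.05 in edgeR, 8 genes were then lower in EA, against 4.32% of all genes, and 1, Adgrl4, was higher, against 4.39%.

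**Figure D1:**
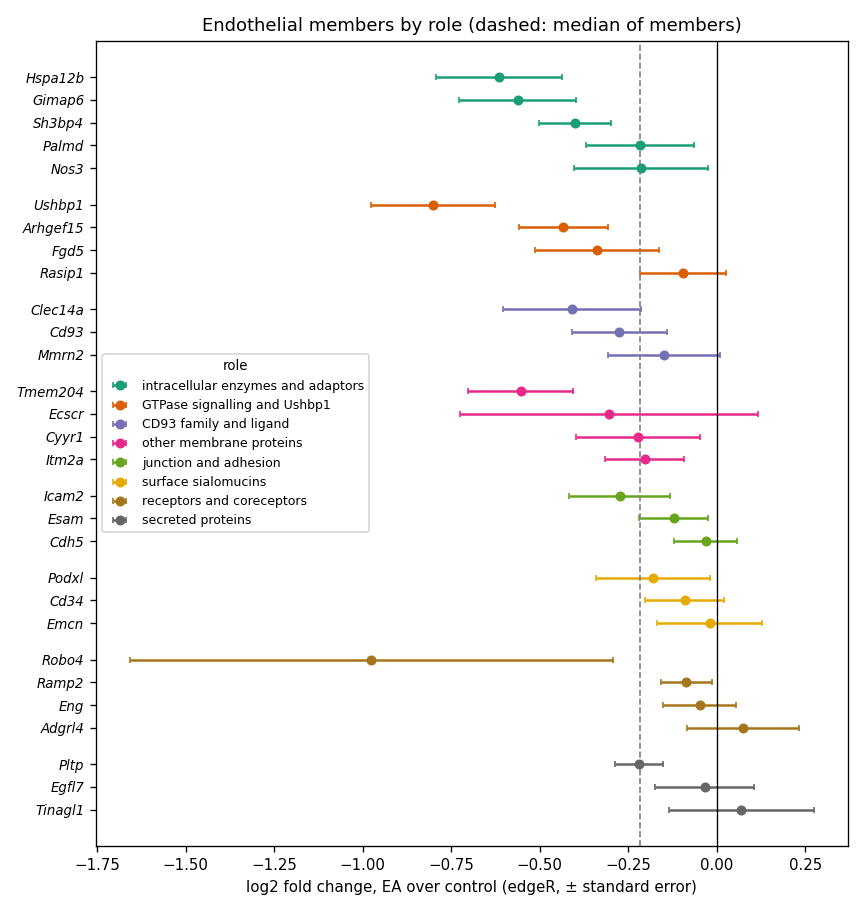
Log2 fold change of EA over control for the 29 endothelial genes tested, with standard errors from edgeR, ordered within 8 groups of function given by colour. The dashed line is their median of -0.22. Genes of the intracellular group and of GTPase signalling lie mostly left of the median, sialomucins and the junction genes Esam and Cdh5 right of it, and Robo4 has by far the widest error.

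Of the junction and adhesion genes, Cdh5 and Esam had small differences and Icam2 a somewhat larger one. Cdh5 encodes VE-cadherin, the adhesive protein of endothelial adherens junctions. It had 7.77, 6.89, 8.57, 8.93 and 6.89 FPKM in EA libraries 1 to 5, against 8.28, 7.74, 7.62, 7.92 and 9.01 FPKM in control libraries 1 to 5. The groups overlapped throughout, and the log2 fold change was -0.03 ± 0.09 (SE). Esam, an immunoglobulin-like adhesion molecule of endothelial tight junctions, averaged 17.5 ± 2.43 FPKM in EA cortex and 19.4 ± 1.77 FPKM in control cortex (SD, n = 5 each), a log2 fold change of -0.12 ± 0.10. Icam2, which binds leukocyte integrins, averaged 3.88 ± 0.556 and 4.77 ± 0.723 FPKM in EA and control cortex, a log2 fold change of -0.27 ± 0.14.

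Sialomucins, the heavily glycosylated proteins of the luminal coat, were also close to 0. Emcn, endomucin, which hinders leukocytes from binding to resting endothelium, had 6.81, 4.62, 4.20, 4.95 and 5.46 FPKM in EA libraries 1 to 5. Control libraries 1 to 5 had 6.56, 5.28, 4.84, 4.50 and 5.54 FPKM of it. This was the smallest difference among the endothelial genes, a log2 fold change of -0.02 ± 0.15, with overlapping groups. Cd34, a surface marker of capillaries, had a log2 fold change of -0.09 ± 0.11. Podxl, podocalyxin, which takes part in opening the vessel lumen, had -0.18 ± 0.16.

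Receptors and coreceptors fell into 3 genes near 0 and Robo4. Eng, endoglin, a coreceptor of the TGF-beta family, had 15.6, 12.7, 17.2, 15.4 and 14.1 FPKM in EA libraries 1 to 5, against 16.0, 16.6, 15.7, 12.8 and 17.8 FPKM in control libraries 1 to 5. Its log2 fold change was -0.05 ± 0.10 with overlapping groups. Ramp2, which turns the calcitonin receptor-like receptor into an adrenomedullin receptor, had -0.09 ± 0.07. In the file's Rnor_6.0 coordinates it shares 1831 bases with an unnamed gene on the same strand, so reads of the pair may have been split between them.

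Adgrl4, an adhesion G protein-coupled receptor of growing vessels, was 1 of only 2 endothelial genes with a positive value. It had 6.25, 5.92, 7.39, 8.17 and 4.16 FPKM in EA libraries 1 to 5, against 6.38, 6.45, 6.76, 4.96 and 6.22 FPKM in control libraries 1 to 5. EA libraries reached both higher and lower than any control library, and the log2 fold change was 0.08 ± 0.16.

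Robo4, a roundabout receptor of endothelium that stabilises vessels, had the most negative value and the least certain one, and is shown in full for that reason, having been picked after its values were seen. Its EA libraries 1 to 5 had 1.47, 1.59, 1.58, 0 and 0.632 FPKM, against 1.39, 1.93, 2.20, 2.64 and 2.48 FPKM in control libraries 1 to 5. EA 4 held 0 counts of it where the other EA libraries held 109 to 291 and control libraries 248 to 459. The fit gave -0.98 ± 0.68 on the log2 scale, and -0.65 without EA 4, with adjusted p = 0.566 in edgeR over all 10 libraries. As a file of assembled transcripts can list a gene at 0 where the assembly failed, the value of EA 4 is given only as listed.

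CD93 and its relatives formed a small set of their own. Cd93 and Clec14a are transmembrane proteins with a C-type lectin domain that bind Mmrn2, multimerin 2, a protein of the endothelial matrix. Clec14a had 1.298, 1.23, 1.09, 1.45 and 2.09 FPKM in EA libraries 1 to 5, against 1.95, 1.93, 1.61, 1.51 and 2.61 FPKM in control libraries 1 to 5. In 4 of 5 EA libraries it lay under the lowest control value, while EA 5 lay within the control range, and the log2 fold change was -0.41 ± 0.19. Cd93 averaged 3.50 ± 0.549 FPKM in EA cortex and 4.30 ± 0.671 FPKM in control cortex (SD, n = 5 each), a log2 fold change of -0.28 ± 0.13. Mmrn2 had -0.15 ± 0.16.

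Among the other membrane proteins, Tmem204, a claudin-like protein of endothelial membranes, stood out. It had 4.11, 3.24, 3.10, 4.06 and 3.99 FPKM in EA libraries 1 to 5, against 4.02, 4.76, 6.83, 5.53 and 6.48 FPKM in control libraries 1 to 5. Only control 1 lay within the EA range. Its log2 fold change was -0.55 ± 0.15, with adjusted p = 0.183 in edgeR and 0.0285 in DESeq2. In Rnor_6.0 Tmem204, on the minus strand of chromosome 10 from 14417609 to 14443010, lies wholly inside Ift140 on the plus strand. Ift140 averaged 14.7 FPKM in EA cortex and 16.1 FPKM in control cortex, a log2 fold change of -0.11. The libraries keep strand, but whether counting used it is not stated.

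Cyyr1 had a log2 fold change of -0.22 ± 0.17, and Itm2a, a membrane protein with a BRICHOS domain, had -0.20 ± 0.11. Ecscr, a receptor for endothelial chemotaxis, was the least abundant gene tested, at 0.216 to 0.758 FPKM in EA libraries and 0.245 to 0.895 FPKM in control libraries. With 17 to 58 counts in EA libraries and 19 to 68 in control libraries, its value of -0.30 ± 0.42 carries little information. Myct1 was listed with 4 counts in EA 5, 4 in control 5 and 0 in every other library, too few for a fold change.

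The genes for GTPase signalling held some of the larger differences. Ushbp1, named for binding the Usher syndrome protein harmonin and placed in this group for convenience, had the lowest p of all endothelial genes. It had 1.88, 1.70, 1.47, 2.43 and 1.80 FPKM in EA libraries 1 to 5, against 3.01, 2.24, 3.38, 4.31 and 3.50 FPKM in control libraries 1 to 5. Only EA 4 and control 2 overlapped. The log2 fold change was -0.80 ± 0.17 (-42.6% in EA), with adjusted p = 0.172 in edgeR and 0.00341 in DESeq2. In the Rnor_6.0 coordinates of the file it lies on the minus strand of chromosome 16 from 19781279 to 19791832.

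Arhgef15 encodes a guanine nucleotide exchange factor that is also known from neurons. It had 1.76, 2.09, 1.74, 1.92 and 1.31 FPKM in EA libraries 1 to 5, against 2.07, 2.64, 2.46, 2.36 and 2.57 FPKM in control libraries 1 to 5. EA 2 barely reached above control 1, the lowest control. Arhgef15 had a log2 fold change of -0.43 ± 0.13, with adjusted p = 0.210 in edgeR. Fgd5, an exchange factor for Cdc42, had -0.34 ± 0.17, and Rasip1, an effector of Rap1 needed for vessel lumens, had -0.10 ± 0.12.

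All 5 intracellular enzymes and adaptors had negative values, and 3 of them had an unadjusted p under 0.05 in edgeR. Hspa12b, a distant member of the HSP70 family found in endothelium, had 4.50, 4.42, 4.75, 7.63 and 4.48 FPKM in EA libraries 1 to 5. Control libraries 1 to 5 had 5.40, 7.30, 8.78, 9.63 and 9.05 FPKM of it. EA 4 alone lay within the control range, and the 4 other EA libraries lay close together under all controls. The log2 fold change was -0.61 ± 0.18 and became -0.79 without EA 4, and the adjusted p was 0.210 in edgeR and 0.0245 in DESeq2.

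Gimap6 encodes a GTPase of the immunity-associated family that acts in autophagy. It had 1.72, 1.22, 1.43, 1.74 and 1.31 FPKM in EA libraries 1 to 5, against 1.64, 2.16, 2.22, 2.20 and 2.93 FPKM in control libraries 1 to 5. Control 1 again lay within the EA range, with all other controls above it. Gimap6 had a log2 fold change of -0.56 ± 0.17, with adjusted p = 0.213 in edgeR.

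Sh3bp4, an SH3 domain protein that takes part in endocytosis of the transferrin receptor, had 4.53, 4.47, 5.09, 5.91 and 5.10 FPKM in EA libraries 1 to 5. Control libraries 1 to 5 had 5.62, 6.09, 7.94, 7.51 and 6.54 FPKM of it. Only EA 4 and control 1 overlapped, and the log2 fold change was -0.40 ± 0.10, with adjusted p = 0.183 in edgeR and 0.0211 in DESeq2. Nos3, the endothelial nitric oxide synthase, had -0.21 ± 0.19, with EA libraries spread from 4.00 to 8.45 FPKM and control libraries from 5.65 to 7.98 FPKM. Palmd, a cytosolic protein related to paralemmin, had -0.22 ± 0.15.

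The secreted proteins differed among themselves. Pltp, the phospholipid transfer protein of lipoproteins, was the most abundant endothelial gene here and is also made by other brain cells. It had 56.6, 55.2, 60.7, 61.8 and 48.4 FPKM in EA libraries 1 to 5, against 61.6, 68.5, 67.1, 71.9 and 65.9 FPKM in control libraries 1 to 5. EA 4 just passed control 1, and EA 5 lay lowest. The difference was small, with a log2 fold change of -0.22 ± 0.07 and adjusted p = 0.223 in edgeR. Egfl7, a secreted regulator of vessel sprouting, had 11.1, 11.5, 11.4, 7.88 and 9.63 FPKM in EA libraries 1 to 5. Control libraries 1 to 5 had 12.01, 11.8, 11.4, 8.002 and 10.3 FPKM of it, a log2 fold change of -0.03 ± 0.14 with overlapping groups.

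Tinagl1, a secreted matrix protein, had 8.78, 12.6, 15.0, 11.5 and 6.92 FPKM in EA libraries 1 to 5, against 7.30, 10.6, 12.6, 13.0 and 10.0 FPKM in control libraries 1 to 5. It ranged widely within both groups, and its log2 fold change of 0.07 ± 0.20 was the other positive one.

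**Figure D2:**
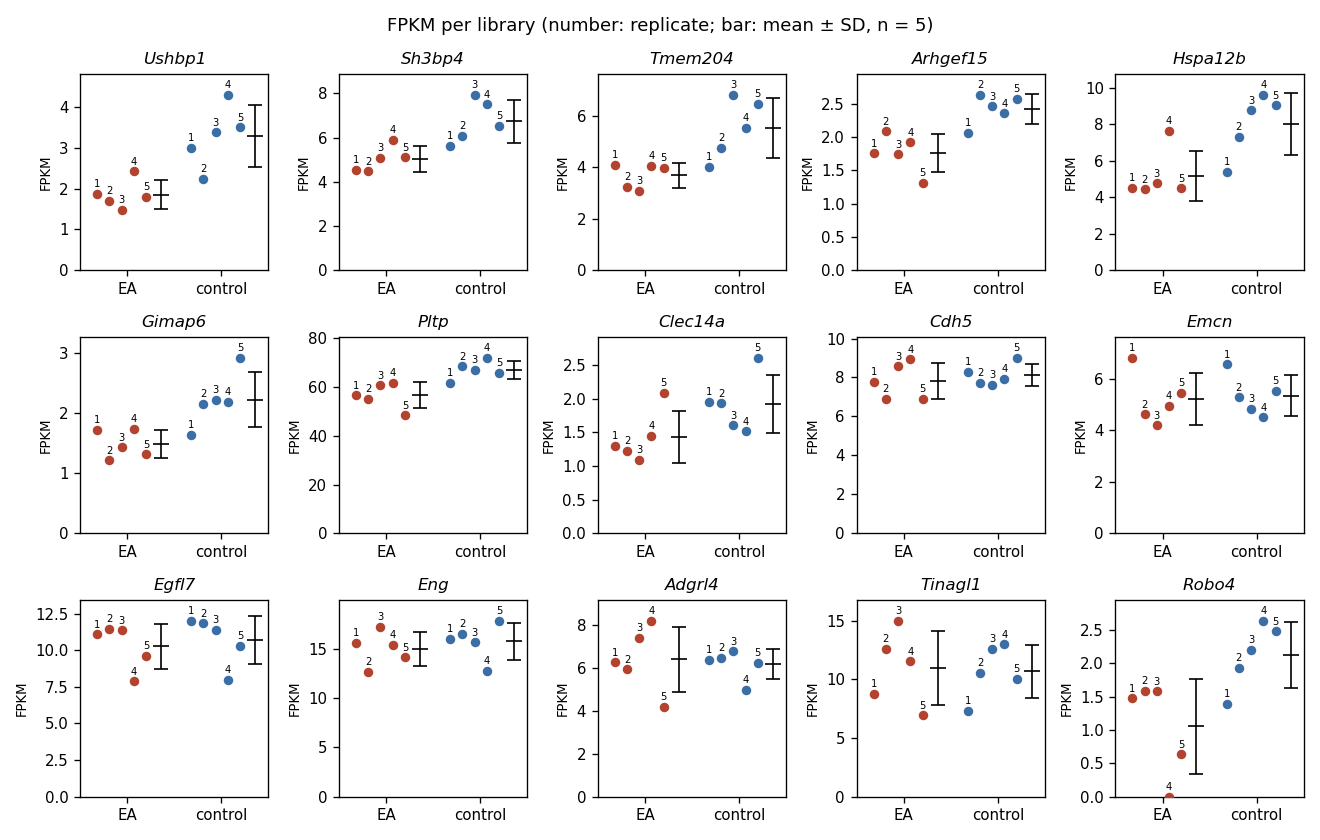
FPKM of 15 endothelial genes in each library, EA left and control right, numbered by replicate, with the mean and SD of 5 libraries per group at the right of each cluster. Ushbp1, Sh3bp4, Tmem204, Arhgef15, Hspa12b, Gimap6 and Pltp have nearly separate groups, Cdh5, Emcn, Egfl7 and Eng overlap throughout, and EA 4 lies at 0 for Robo4.

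Many of the smaller fold changes depended on single libraries. With each library left out in turn, 22 of the 29 genes kept their sign and 7 did not, namely Cdh5, Emcn, Egfl7, Eng, Cd34, Adgrl4 and Tinagl1. Of the 22, 11 moved by more than 1.5 times in at least 1 of these fits. Cyyr1 had -0.05, Itm2a -0.10 and Icam2 -0.17 without control 1. Nos3 had -0.42 without EA 3 and -0.11 without EA 5. EA 3 also bore on Rasip1 (-0.22 without it), Podxl (-0.29), Mmrn2 (-0.24) and Palmd (-0.11). Without EA 1, Mmrn2 had -0.05. Without EA 2, Podxl had -0.07, and without EA 5, Esam had -0.04 and Rasip1 -0.03. Ecscr ran from -0.59 without EA 4 to -0.07 without control 4, and Clec14a had -0.27 without control 5. Ushbp1, Sh3bp4, Tmem204, Arhgef15, Hspa12b, Gimap6 and Pltp, with the lowest p, were not among these 11.

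Without EA 2 and EA 5 together, Adgrl4 had 0.27 with an unadjusted p under 0.05 in edgeR. Cd93 had -0.13, Pltp -0.13, Itm2a -0.13, Nos3 -0.09, Mmrn2 -0.08, Podxl -0.05, Ramp2 -0.04, Esam -0.01 and Rasip1 -0.01. Cdh5, Emcn, Eng and Ecscr were above 0, at 0.09, 0.02, 0.06 and 0.08. Cd34 had -0.18, Palmd -0.33 and Tinagl1 0.18, farther from 0 than with all libraries. Ushbp1 (-0.74), Tmem204 (-0.52), Hspa12b (-0.48), Gimap6 (-0.42), Arhgef15 (-0.39) and Sh3bp4 (-0.35) moved by less than 1.5 times.

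No endothelial gene had all 5 EA libraries below or above all 5 control libraries in scaled counts , where 1.62% of all genes had EA wholly below and 1.42% wholly above. The count depended on single libraries. Without control 1, 6 genes had EA wholly below control, against 3.86% of all genes, and without EA 4 there were 3, against 2.48%. For 11 of the 29 genes all 5 EA libraries lay below the control median in FPKM, a count that was not made over all genes.

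The fold changes were uneven. Of the 29 genes, 5 had a log2 fold change below -0.5, 5 from -0.5 to -0.3, 10 from -0.3 to -0.1 and 9 between -0.1 and 0.1, with none above 0.1. Over all genes tested the quartiles were -0.10 and 0.10. Measured against each gene's own error, 9 lay more than 2 standard errors below 0 and 20 lay within 2 standard errors of 0. These counts were not made over all genes. Set against the median of the list instead, 24 of the 29 lay within 2 standard errors of -0.22. The SD of the fold changes was 0.25, with a root mean square standard error of 0.20, so a spread of 0.14 remained once the error variance was subtracted.

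Over all genes tested the SD was 0.28 and the same remainder was 0.18, so the endothelial genes were not more uneven than genes at large by this measure. The log2 fold changes of all genes ran from -3.44 to 7.38, and an SD is sensitive to such extremes. By the interquartile range the endothelial genes were wider, at 0.31 against 0.21 for the 14024 genes in the same range of mean FPKM. Their median standard error was 0.15 against 0.10. Robo4 weighed on the SD. Without it the SD was 0.21 and the remainder 0.14. Among the 21 genes of narrow expression the SD was 0.28, and among the 8 of broader expression it was 0.16.

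**Figure D3:**
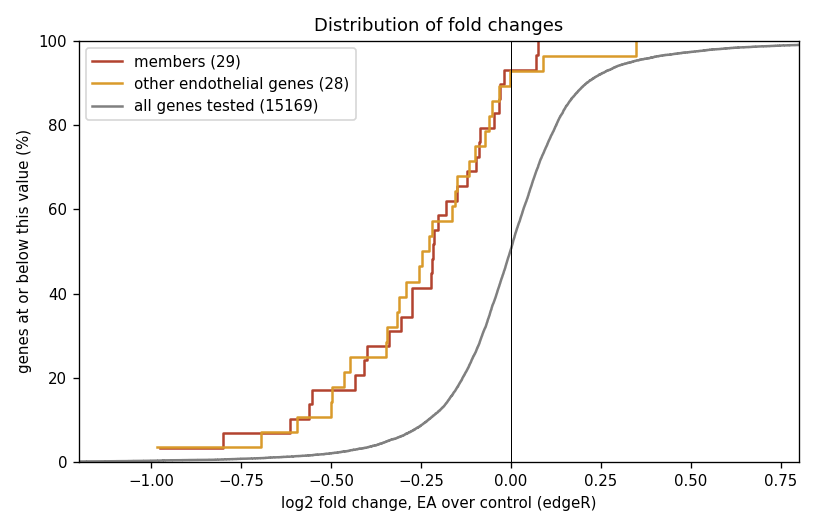
Share of genes, in percent, at or below each log2 fold change of EA over control, for the 29 endothelial genes, 28 other endothelial genes and all 15169 genes tested. The endothelial curves lie left of the curve of all genes and reach over 90% at 0. Between their quartiles they climb over a wider span of values, while the extremes of all genes lie farther out, beyond the axis.

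Groups of function differed in their medians. The median log2 fold change was -0.40 for the 5 intracellular enzymes and adaptors and -0.39 for the 4 genes of GTPase signalling with Ushbp1. It was -0.28 for the 3 genes of the CD93 set and -0.26 for the 4 other membrane proteins. It was -0.12 for the 3 junction and adhesion genes, -0.09 for the 3 sialomucins, -0.07 for the 4 receptors and -0.03 for the 3 secreted proteins. These groups are small and were not tested against each other.

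The level of expression moved with the fold change. The 14 genes under the median level of 6.11 FPKM had a median log2 fold change of -0.37 and 5 of the 7 with an unadjusted p under 0.05 in edgeR. The 15 genes at or above it had -0.10 and 2 of the 7. Across the 29 genes the log2 fold change and the log2 mean FPKM had a Spearman correlation of 0.65 and a Pearson correlation of 0.52, a description only, since all points come from the same 10 libraries. The part of level in the unevenness was not tested.

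**Figure D4:**
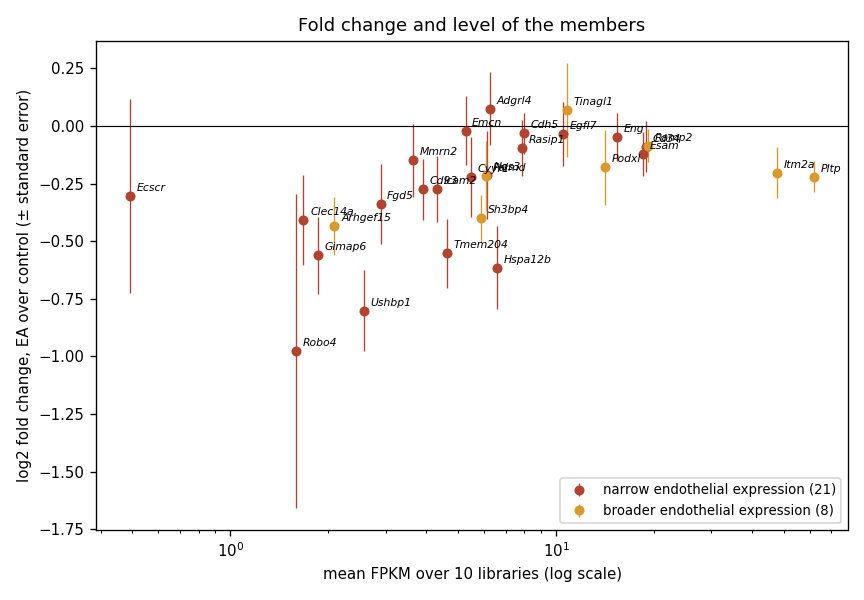
Log2 fold change of EA over control, with standard errors from edgeR, against mean FPKM over 10 libraries on a log axis, for 21 genes of narrow and 8 of broader endothelial expression. Abundant genes such as Eng and Ramp2 lie near 0, Pltp and Itm2a near -0.2, and the genes below -0.5 all have low or middle levels.

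Ratios to Cdh5 within a library set each gene against 1 other endothelial gene. Whether Cdh5 stands for the amount of endothelium was not tested, and it was picked as the divisor with its own values known. As its log2 fold change was only -0.03, dividing by it left the fold changes nearly as they were (Ushbp1 at -0.77, against -0.80). Ushbp1 had 0.172 to 0.272 FPKM per FPKM of Cdh5 in EA libraries and 0.289 to 0.544 in control libraries, with no overlap. Cd93 had 0.400 to 0.462 per Cdh5 in EA libraries and 0.464 to 0.570 in control libraries, also with no overlap. These 2 of 28 genes (7.14%) were also the ones with EA wholly below control in the ratio of scaled counts, against 0.27% of all genes, and 0 had EA wholly above, against 0.402%. The division changed the background too, as 1.62% of all genes had EA wholly below in scaled counts alone. Whether 0.27% is a like background for endothelial genes was not tested. Tmem204 had a ratio of 0.479 ± 0.0821 in EA cortex and 0.683 ± 0.151 in control cortex, and Hspa12b 0.656 ± 0.118 and 0.994 ± 0.220 (SD, n = 5 each), both with overlap. The ratio of Emcn was 0.677 ± 0.161 in EA cortex and 0.659 ± 0.0851 in control cortex.

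Among the libraries, EA 5 had the lowest endothelial values. Taking each gene's log2 difference from its control mean, the median over the 29 genes was -0.33, -0.25, -0.26, -0.10 and -0.41 in EA libraries 1 to 5. In control libraries 1 to 5 it was -0.03, -0.09, 0.02, 0.01 and 0.13. All 5 EA libraries lay below all 5 control libraries, with EA 4 nearest to them. EA 5 held the lowest value of the 10 libraries for 12 genes, and the EA libraries together for 25 of the 29. The highest value lay in a control library for 21 genes and in an EA library for 8, of which EA 3 held 5. The counts of lowest and highest values were not made over all genes.

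**Figure D5:**
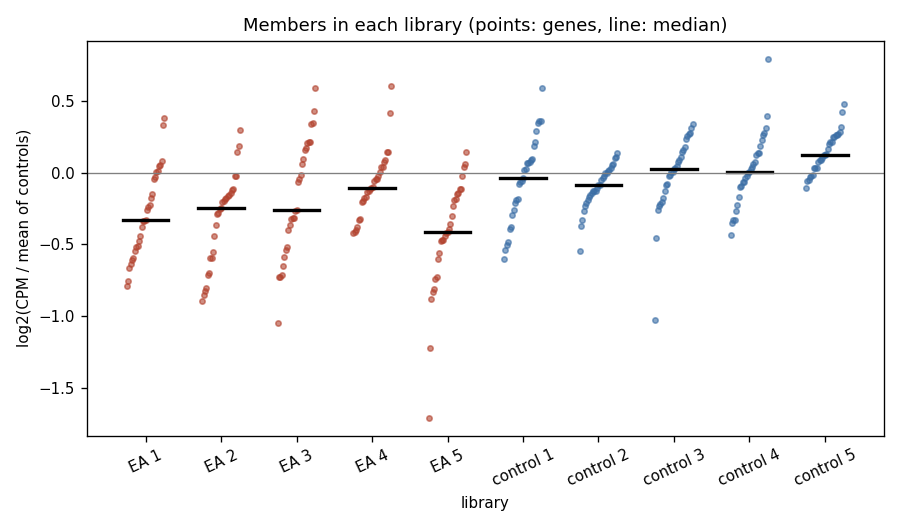
Log2 ratio of scaled counts to the mean of the controls for each endothelial gene (points) in each of the 10 libraries, with the median as a black line, EA libraries at the left. The medians of EA libraries run from -0.41 to -0.10 and those of controls from -0.09 to 0.13, while single genes range widely within each library. Robo4 in EA 4, at 0 counts, is left out.

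Other endothelial genes, listed from general knowledge for receptors, transcription factors, transporters and junctions, were mostly lower in EA as well. The list was made with earlier results of these data known. It holds Sox18, Vwf, Tie1 and Cavin2, which the study had reported as different in these libraries. The list is therefore no independent support. Foxf2, Plvap, Cldn5 and Abcb1a, of the 32 genes listed, were not tested. Of 28 tested, 26 were below 0, against 50.5% of all genes. At an unadjusted p under 0.05 in edgeR, 11 were lower and 0 higher, against 7.15% and 6.59% of all genes. The median log2 fold change was -0.24 and 0 were called. The spread left after subtracting the error variance was 0.21, against 0.14 for the 29 genes above. Their summed expression was 399.5 to 438.3 FPKM in EA libraries and 448.8 to 492.8 FPKM in control libraries. The lowest p in edgeR was that of Sox18, a transcription factor of vessels, at 2.67 ± 0.708 FPKM in EA cortex and 5.35 ± 0.657 FPKM in control cortex (SD, n = 5 each). It had a log2 fold change of -0.98 ± 0.17 and adjusted p = 0.106 in edgeR. It was followed by Vwf, the clotting protein of endothelial granules (-0.50 ± 0.11), Tie1, an orphan receptor of the angiopoietin system (-0.46 ± 0.10), and Erg, an ETS transcription factor (-0.50 ± 0.13). In these 4 of the 28, named for their low p, the EA libraries lay wholly below the controls in scaled counts. This held for 0 of the 29 genes above and for 1.62% of all genes.

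Markers of some other cell types had values in the same direction. Over all genes, 50.5% were below 0 and 7.15% were lower at an unadjusted p under 0.05 in edgeR. Of 12 genes of mural cells, the pericytes and smooth muscle around vessels, 10 were below 0 and 4 had an unadjusted p under 0.05 in edgeR, with sums of 167.1 to 195.4 FPKM in EA libraries and 179.6 to 207.5 FPKM in control libraries. All 9 oligodendrocyte genes were below 0, 3 of them at an unadjusted p under 0.05, with sums of 905.0 to 1170 FPKM in EA libraries and 1021 to 1475 FPKM in control libraries. Meningeal and perivascular fibroblast genes had a median of -0.12 over 8 genes, with sums of 46.1 to 88.4 FPKM in EA libraries and 53.3 to 90.2 FPKM in control libraries.

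Blood cell genes summed to 6.62 to 18.2 FPKM in EA libraries and 8.20 to 44.1 FPKM in control libraries, and all 4 tested were below 0. The haemoglobin gene Hbb averaged 3.72 ± 1.83 FPKM in EA cortex and 9.18 ± 5.92 FPKM in control cortex (SD, n = 5 each). Of the 8 blood genes with a row, Cd79a, of B cells, was at 0 in every library. Medians were 0.00 over 10 microglial genes, -0.04 over 10 astrocytic genes and 0.02 over 10 neuronal genes. At an unadjusted p under 0.05 in edgeR, 2 neuronal genes, Gad1 and Gad2, were higher, against 6.59% of all genes. By the same measure 1 astrocytic gene, Aldoc, was lower, against 7.15% of all genes, and 0 microglial genes passed. What part these cell types, or the structural RNA of EA 2 and EA 5, had in the endothelial values was not tested.

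The sequence before the start of transcription was looked at for genes at both ends of the range. RefSeq promoters (build GRCr8) were matched for 21 of the 29 genes, and the 250 bases before each start were searched on both strands for CGGAAG and CAGGAA, forms of the core that ETS factors bind, for ACAAT, a SOX core, and for TATAAA. The second of these, CAGGAA, was added after the letters had been read. The 4 promoters shown belong to the gene with the lowest p (Ushbp1), a gene just past the lower quartile of fold changes (Clec14a) and genes with some of the smallest differences (Emcn, Egfl7). Capitals mark CAGGAA or its complement TTCCTG, and each is written 5′ to 3′ on the strand of its gene.
Ushbp1 (GRCr8, chr16:18101868-18102117, minus strand): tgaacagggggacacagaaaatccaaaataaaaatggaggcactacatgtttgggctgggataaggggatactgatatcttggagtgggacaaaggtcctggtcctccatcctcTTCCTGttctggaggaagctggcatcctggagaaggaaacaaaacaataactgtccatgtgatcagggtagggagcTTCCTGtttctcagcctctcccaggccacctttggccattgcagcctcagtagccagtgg
Clec14a (GRCr8, chr6:81619557-81619806, minus strand): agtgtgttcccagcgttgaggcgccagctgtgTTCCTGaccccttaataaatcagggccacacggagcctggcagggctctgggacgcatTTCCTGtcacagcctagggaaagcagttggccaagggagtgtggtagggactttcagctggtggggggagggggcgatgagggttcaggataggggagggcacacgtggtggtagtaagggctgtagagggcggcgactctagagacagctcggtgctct
Emcn (GRCr8, chr2:228564289-228564538, plus strand): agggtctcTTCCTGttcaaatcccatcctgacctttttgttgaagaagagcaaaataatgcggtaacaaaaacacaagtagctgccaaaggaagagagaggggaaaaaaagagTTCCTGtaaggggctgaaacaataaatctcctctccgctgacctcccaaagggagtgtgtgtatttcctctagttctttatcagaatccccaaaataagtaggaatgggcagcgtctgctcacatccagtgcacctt
Egfl7 (GRCr8, chr3:29805381-29805630, plus strand): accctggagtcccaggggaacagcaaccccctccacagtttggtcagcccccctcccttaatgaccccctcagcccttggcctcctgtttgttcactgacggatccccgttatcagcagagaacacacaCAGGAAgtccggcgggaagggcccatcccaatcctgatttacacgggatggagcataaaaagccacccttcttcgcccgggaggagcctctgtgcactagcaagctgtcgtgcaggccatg
Ushbp1 and Emcn, far apart in fold change, thus both hold the letters at 2 places, as does Clec14a, and Egfl7 holds them once. CAGGAA was present in 11 of the 21 promoters (52.4%), against 24.7% of 33469 RefSeq promoters of that length. As CAGGAA was picked after these promoters had been read, its share among them cannot be weighed against that of all promoters. CGGAAG was in 1 of 21 (4.76%), that of Pltp, against 13.9% of all promoters. ACAAT was in 7 of 21 (33.3%) against 30.0%, and TATAAA in 1 of 21 (4.76%) against 12.9%. The median log2 fold change was -0.22 for the 11 genes with CAGGAA and -0.21 for the 10 without, so these letters did not divide the genes by fold change. A match is a run of letters and not a known binding site.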

How the data were processed

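Cerebral cortex poly(A) RNA of 5 EA and 5 control rats was sequenced by the authors as paired, strand-marked reads. The submitters' notes name HISAT2 2.0, StringTie 1.3.0, Bowtie 0.12.2 and Rnor_6.0. FPKM values were computed by the authors from the StringTie assembly. The estimated counts deposited beside them are whole numbers that exceed the valid reads, by a derivation the sources used here do not give.

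Genes with FPKM of at least 0.5 in at least 5 libraries were kept: 15169 genes with 99.85% of counts. Counts were tested with edgeR 4.0.16 (TMM, quasi-likelihood), all 10 libraries in 1 fit, in R 4.3.3. Standard errors are the log2 fold change divided by the root of F. Alternatives were DESeq2 1.42.0, limma 3.58.1 on log2(FPKM + 1) or + 0.1, other filters and scalings, a replicate block, and leaving out libraries. An FPKM of 0.0001 stands for 0. Simulated counts for this comparison held 50 genes for each fold in 15169. Of these edgeR called 3 (1.2-fold), 26 (1.5-fold), 37 (2-fold) and 50 (4-fold), beside 6 false calls. The simulated spread between libraries followed the trend with expression level and not each gene's own spread, so recovery in the real data may be lower.

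The members, lists and tests were chosen with earlier results of these data known. Every member is named. Library values are given for the 8 with the lowest p, the 4 nearest 0, those above 0, Cdh5 and, added later, Robo4. Of the other endothelial genes the 4 with the lowest p are named.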

Additional observations from a re-analysis of the deposited data

Results flagged for a closer look

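In 58 groups of 5 libraries (29 genes, EA or control), 2 held a library far from its group, where about 1 in 20 is flagged by chance. Hspa12b had 7.63 FPKM in EA 4, against 4.42 to 4.75 FPKM in the other 4 EA libraries. Esam had 22.5 FPKM in control 4, against 18.1 to 19.1 FPKM in the other 4 control libraries.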

How the results depend on the processing

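Over the fit reported and 19 alternatives, 21 of the 29 genes tested had a negative log2 fold change wherever they were fitted, and Ushbp1, Sh3bp4, Tmem204, Arhgef15, Hspa12b, Gimap6 and Pltp kept an unadjusted p under 0.05 in all 20. DESeq2 called 168 genes, against 3 in edgeR, and 4 endothelial genes (Ushbp1 at -0.80, Sh3bp4 at -0.40, Tmem204 at -0.55, Hspa12b at -0.61), against 0. The cause was not tested. Genes with no overlap of the groups numbered 1 without an expression filter and 1 with FPKM of at least 1 in all libraries (EA wholly below in 1.29% and 1.8% of all genes), for a cause that was not tested. On log2(FPKM + 1) the spread was 0.17, as the pseudocount shrinks low genes. Library totals for scaling moved the median of all genes to -0.02.

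Without EA 2 and EA 5 the median was -0.13, 2 genes had no overlap (3.07% of all genes had EA wholly below), and Emcn (0.0215), Cdh5 (0.0876), Eng (0.0630) and Ecscr (0.0799) turned positive. Leaving out single libraries gave 1 to 5 genes called over all genes (5 without EA 3, 1 without EA 5) and 0 endothelial genes called. At an unadjusted p under 0.05 in edgeR, 7 to 11 endothelial genes were lower (11 without EA 3), against 5.06% to 8.27% of all genes. Those with no overlap numbered 0 to 6 (EA wholly below in 1.82% to 3.86% of all genes). The median was -0.25 to -0.16 and the spread 0.23 to 0.29. Endothelial genes below 0 numbered 24 to 27, against 49% to 50.9% of all genes. Of the genes, 7 near 0 changed sign: Cd34 ran from -0.167 to 0.00508, Emcn from -0.133 to 0.0795, Cdh5 from -0.0778 to 0.0187, Egfl7 from -0.126 to 0.0520, Eng from -0.118 to 0.00756, Adgrl4 from -0.0220 to 0.202 and Tinagl1 from -0.0807 to 0.204. Robo4 ran from -1.17 to -0.65.

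With the replicate number as a block, 0 genes were called and 11 endothelial genes had an unadjusted p under 0.05 in the lower direction (7.53% of all genes). Same-numbered libraries deviated together at small correlations of 0.00 to 0.08, yet 3 of the 5 EA libraries correlated best with their own number. Whether the numbers pair the samples cannot be told from these values.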
